A study of Mus musculus with 4 samples.

Results

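The Gsdmc/Muc3-high cells of the distal colon (DC) are 1380 of the 6776 DC cells that passed the cell filter, 240 of 1859 in library DC 1 and 1140 of 4917 in library DC 2. A cell was counted among them when 4 conditions on its own counts were met, each per 10000 UMIs (unique molecular identifiers, one per captured transcript). Muc3, Gsdmc2, Gsdmc3 and Gsdmc4 together had to reach 10, the absorptive genes Car4, Slc26a3 and Aqp8 together had to stay below 30, Mxd1 had to stay below 3, and 10 cell cycle genes together had to stay below 5. They made up 12.9% of the kept cells of DC 1 (exact 95% interval 11.4 to 14.5) and 23.2% of those of DC 2 (22.01 to 24.4), which is 18.05% ± 7.27 (SD, n = 2 libraries). The intervals cover counting error only, and the libraries lay further apart than either interval is wide. Because these 4 conditions chose the cells, everything set against the other DC cells is a description with no test.

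The series holds 4 droplet libraries of sorted intestinal epithelium, DC 1 and DC 2 from the distal colon and Si8 1 and Si8 2 from the eighth section of the small intestine. All mice belonged to the RedMUC298trTg strain, in which goblet cells carry mCherry, and were 6 to 8 weeks old. Sorting used the mCherry signal, but whether each library holds only positive cells, which promoter drives the reporter and how many mice were pooled are not given in the sources used here, so the spread between libraries of a tissue may be technical. Across the 4 libraries 10522 of 10827 barcodes were kept. Total counts ran between 26075303 and 66880457 UMIs per library, with 1 to 15 barcodes shared by any pair of libraries and none shared by Gsdmc/Muc3-high cells. The tissue labels fitted the counts: the hindgut gene Hoxb13 stood at 459 and 488 CPM (a gene's UMIs summed over the cells of a group within a library, per 1000000 UMIs of that sum) in Gsdmc/Muc3-high cells of DC 1 and DC 2 and had no UMI in any kept Si8 cell.

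Goblet cells make the gel of the intestinal mucus, whose main protein is the secreted mucin Muc2, and they arise from crypt progenitors under the secretory factor Atoh1. Muc3 is by contrast a membrane-bound mucin of the apical surface, and gasdermins are a family of cytoplasmic proteins of which several form membrane pores once cleaved. Absorptive colonocytes carry most of the transport of short-chain fatty acids, salt and water in this tissue.

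The 3 Gsdmc genes of the rule are near-identical copies on the minus strand of chromosome 15 (GRCm38): Gsdmc2 at chr15:63824346-63845177, Gsdmc3 at chr15:63857724-63878558 and Gsdmc4 at chr15:63891264-63912297. Their annotated coding sequences (GENCODE M21 transcripts, 1440 bases each) were 97.1% identical between Gsdmc2 and Gsdmc3, 93.7% between Gsdmc2 and Gsdmc4 and 93.8% between Gsdmc3 and Gsdmc4 over aligned bases. The first 90 coding bases are shown because they let a reader see how little separates the 3 genes whose counts define the cells. Lower case marks bases that all 3 share, and capitals mark the 2 positions that differ.
Gsdmc2: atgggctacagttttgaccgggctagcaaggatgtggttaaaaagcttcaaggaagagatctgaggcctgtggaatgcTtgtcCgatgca
Gsdmc3: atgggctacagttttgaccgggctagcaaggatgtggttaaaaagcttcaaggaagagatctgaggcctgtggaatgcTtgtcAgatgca
Gsdmc4: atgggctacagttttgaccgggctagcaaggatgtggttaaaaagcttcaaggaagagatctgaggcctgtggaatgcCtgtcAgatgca
Among the 98-base windows in the last 500 bases of the transcripts, 97 of 539 of Gsdmc2 and 95 of 809 of Gsdmc3 also occur in another Gsdmc transcript, against 0 of 404 windows of Gsdmc4. The related gene Gsdmc, which the rule does not use, shared 30 of 406 windows. The split of UMIs among the copies is therefore uncertain for Gsdmc2 and Gsdmc3, and how reads from shared stretches affected the summed count was not tested.

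Muc3 carried most of the rule. It alone reached 10 per 10000 UMIs in 231 of 240 Gsdmc/Muc3-high cells of DC 1 and in 1101 of 1140 of DC 2, and it gave 75.04% and 73.7% of the summed UMIs of the 4 genes. The Gsdmc genes alone reached 10 in 68 and 364 of these cells. No Gsdmc UMI was counted in 26 cells (10.8%) of DC 1 and 59 cells (5.18%) of DC 2, so the name Gsdmc-high fits the sum over the cells better than it fits each cell. The median cell held 19.4 and 20.1 Muc3 UMIs per 10000 in DC 1 and DC 2, against 0 and 0.984 in the other kept cells of the same libraries. Gsdmc4 had a median of 3.54 and 3.86 in the Gsdmc/Muc3-high cells, against 0 and 0 in the other cells.

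Summed over cells, Muc3 (chr5:137134922-137149322) stood at 2045 and 2121 CPM in Gsdmc/Muc3-high cells of DC 1 and DC 2, against 376 and 653 CPM in the other kept cells. Gsdmc4 stood at 406 and 472 CPM, against 41.0 and 84.7 CPM. Gsdmc2 stood at 148 and 161 CPM, against 11.2 and 26.7 CPM, and Gsdmc3 at 88.5 and 121 CPM, against 7.68 and 15.4 CPM. These 4 differences follow from the rule. Only 7 and 19 cells lay just inside the limit of 10, between 10 and 11, and 6 and 20 cells that met the other conditions lay just outside it, between 9 and 10. Slc5a8, which the rule did not use, stood at 33.4 and 86.6 CPM just inside and at 178 and 112 CPM just outside, so it was not higher just inside the limit in either library. The Gsdmc/Muc3-high cells were also somewhat deeper, with a median of 16851.5 and 14450 UMIs per cell, against 13221 and 11702 UMIs in the other cells, and had 5.69% and 5.32% mitochondrial UMIs, against 5.16% and 5.09%.

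Outside the rule, 9230 genes had a mean of at least 5 CPM, and 45 of them (0.488%) were at least 2-fold higher in Gsdmc/Muc3-high cells than in the other cells in both libraries, with 10 CPM added to each level. Another 91 (0.986%) were at least 2-fold lower. The median log2 ratio over all 9230 genes was 0.03 in each library. With 1 CPM added the counts were 139 higher and 191 lower, and against only those other cells with a rule sum below 10 they were 144 higher and 79 lower. In DC 1 alone 102 genes passed the 2-fold limit upward and in DC 2 alone 51, and the 45 common genes were 44.1% of the DC 1 set and 88.2% of the DC 2 set.

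By the smaller of the 2 library ratios, Hao2, Slc5a8, Slc6a14 and Aqp4 stood furthest above the other cells. Hao2 (chr3:98874521-98893239), a peroxisomal oxidase of hydroxy fatty acids, stood at 278 and 288 CPM in Gsdmc/Muc3-high cells of DC 1 and DC 2, against 23.6 and 56.2 CPM in the other cells. Slc5a8 (chr10:88885992-88929515), the sodium-coupled transporter of short-chain fatty acids and other monocarboxylates, stood at 273 and 307 CPM, against 36.6 and 60.7 CPM. At least 1 Slc5a8 UMI was found in 90% and 93.2% of the Gsdmc/Muc3-high cells, against 17.3% and 29.4% of the other cells. Slc6a14, a broad amino acid transporter, had 234 and 239 CPM, against 30.2 and 55.2 CPM, and the water channel gene Aqp4 had 127 and 214 CPM, against 19.2 and 49.3 CPM. In each of these 4 genes both libraries of Gsdmc/Muc3-high cells lay above both libraries of the other cells. The mean log2 ratio over the 2 libraries was 2.64 for Hao2, 2.38 for Slc5a8, 2.27 for Slc6a14 and 2.07 for Aqp4.

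Of the 15 genes furthest above the other cells, Dmbt1 and Wfdc2 belong to the antimicrobial and surface defence list. Dmbt1 (chr7:131032053-131121630), a secreted scavenger receptor that binds bacteria, stood at 257 and 275 CPM in Gsdmc/Muc3-high cells, against 33.2 and 74.0 CPM in the other cells. It was detected in 75.8% and 82.0% of the Gsdmc/Muc3-high cells, against 14.5% and 28.1% of the others. Wfdc2, a secreted protein with protease inhibitor domains, had 1024 and 1369 CPM, against 361 and 541 CPM. Tm4sf20, a membrane protein of the L6 tetraspan-like family, had 594 and 608 CPM, against 115 and 184 CPM. Sult1a1, a phenol sulfotransferase, had 207 and 237 CPM, against 45.8 and 75.2 CPM, and Edn1, the precursor of the peptide endothelin 1, had 190 and 227 CPM, against 40.5 and 83.2 CPM. The remaining genes of the 15 were the uncharacterised 2610528A11Rik, the slow skeletal troponin gene Tnni1, the peptide-amidating enzyme gene Pam, the methanethiol oxidase gene Selenbp1, the transporter-like gene Mfsd4 and the glycerol kinase gene Gk, with mean log2 ratios of 1.92, 1.63, 1.56, 1.45, 1.46 and 1.55. All 5 of the genes given as markers of these cells, Gsdmc4, Gsdmc2, Muc3, Dmbt1 and Slc5a8, were thus higher. Only Dmbt1 and Slc5a8 are not genes of the rule. The markers were given with earlier results of these data known, so none of the 5 is independent support.

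**Figure D1:**
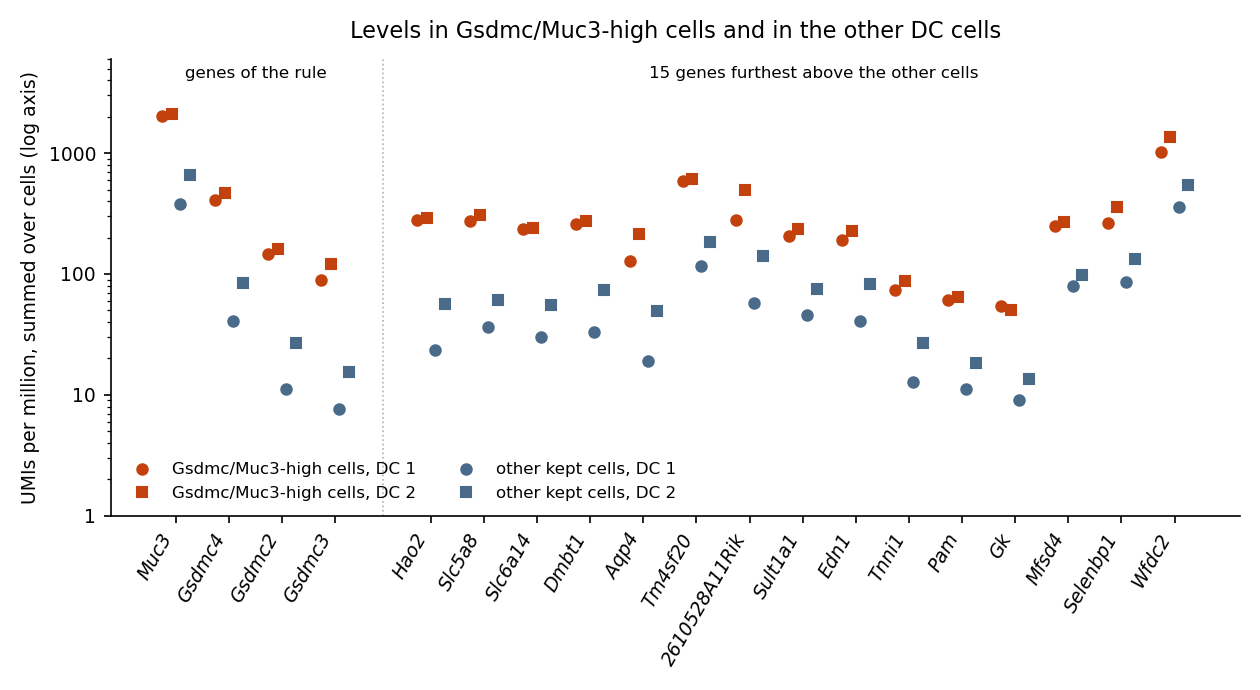
CPM (log axis) of the 4 genes that chose the cells and of the 15 genes outside the rule furthest above the other cells; orange symbols are Gsdmc/Muc3-high cells and blue symbols the other kept cells, circles DC 1 and squares DC 2. For each gene both orange symbols lie above both blue ones; Hao2 is at 278 and 288 CPM, against 23.6 and 56.2 CPM, and 2610528A11Rik at 280.1 and 494.5 CPM, against 57.4 and 142 CPM.

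Of the gene lists, short-chain fatty acid and monocarboxylate handling had 3 of 13 tested genes higher and 0 lower. Beside Slc5a8 these were Acsm3, an acyl-CoA synthetase, at 133 and 128 CPM in Gsdmc/Muc3-high cells, against 30.2 and 47.1 CPM in the other cells, and the monocarboxylate transporter Slc16a1 at 93.3 and 87.1 CPM, against 25.9 and 31.6 CPM. The list's median log2 ratio was 0.27 and 0.24 in DC 1 and DC 2. Ion and water transport had 3 of 23 genes higher and 0 lower, namely Aqp4, the sulfate transporter Slc26a2 (305 and 284 CPM, against 101 and 115 CPM) and the magnesium channel Trpm6. Antimicrobial and surface defence had 3 of 22 higher, Dmbt1, Wfdc2 and the cytokine gene Il18 (127 and 135 CPM, against 37.0 and 50.6 CPM), and 3 lower. Those 3 were Saa1, an acute-phase apolipoprotein, at 36.3 and 54.5 CPM, against 300.3 and 259.7 CPM, the chemokine Ccl6 at 859 and 762 CPM, against 2285 and 1775 CPM, and the lectin Reg4 at 1435 and 1301 CPM, against 4069 and 3994 CPM. The transcription regulator Id1 was the 1 of 21 genes of the Notch and absorptive factor list that was higher, at 747 and 549 CPM, against 280 and 260.04 CPM.

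Colonocyte markers did not move as a block: 2 of 20 were higher, Hao2 and Trpm6, and 3 were lower, Saa1, the keratin gene Krt20 (8.70 and 16.3 CPM, against 35.2 and 48.9 CPM) and the guanylin-family peptide gene Guca2b (89.2 and 85.4 CPM, against 227 and 217 CPM). In the cells with little Muc3 and Gsdmc, Saa1 stood at 65.5 and 83.7 CPM and Krt20 at 16.5 and 20.5 CPM, while cells over the Mxd1 limit, which the rule left out, held 6095 and 4257 CPM of Saa1 and 591 and 758 CPM of Krt20. Against the cells with little Muc3 and Gsdmc, some of the list were higher in Gsdmc/Muc3-high cells (named after their values were seen). Car1 had 114 and 112 CPM, against 9.44 and 16.9 CPM. Hao2 had 278 and 288 CPM, against 3.57 and 11.3 CPM, and Prdx6 393 and 473 CPM, against 141 and 157 CPM. Others were lower, among them Guca2a (774 and 957 CPM, against 1626 and 1748 CPM) and Guca2b. The part of cells over the Mxd1 limit in the list's ratios was not tested. Brush border genes had 0 of 20 past the limit in either direction, with list medians of 0.15 and 0.26, and fatty acid oxidation 0 of 19, with medians of 0.18 and 0.25. Nuclear genes of oxidative phosphorylation had 0 of 64 past the limit, with medians of 0.09 and 0.13. Tight junction genes had 0 of 23 and membrane mucins other than Muc3 0 of 13. Xenobiotic metabolism had list medians of 0.69 and 0.50, although Sult1a1 alone of its 31 tested genes passed the 2-fold limit.

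Genes of mucus and of the secretory programme lay on the other side. Of 24 tested goblet markers, 8 were at least 2-fold lower and 0 higher, with list medians of -0.999 and -0.85. Agr2, the ER protein needed for folding of Muc2, stood at 4776 and 5121 CPM in Gsdmc/Muc3-high cells, against 10326.5 and 12364 CPM in the other cells. Spink4, a small secreted peptide, had 6670 and 6293 CPM, against 14293.6 and 13384.8 CPM. The goblet cell factors Atoh1 (153 and 91.2 CPM, against 407 and 195 CPM) and Spdef (59.2 and 45.8 CPM, against 129 and 104 CPM) were the 2 of 13 secretory lineage factors past the limit, both lower. Of 16 core mucus genes 5 were lower, Agr2, Spink4, Tff3, the chloride channel regulator Clca1 and the pentraxin-like gene Mptx1, and 1 was higher. The exception was Sycn, a granule protein known from the exocrine pancreas, at 1720 and 1951 CPM in Gsdmc/Muc3-high cells, against 659.8 and 793 CPM in the other cells.

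Of the 12 genes furthest below the other cells among those with a mean of at least 50 CPM in the other cells, 11 belong to the cell cycle or to the chromatin and spindle of dividing cells, which the rule itself capped, for example Hist1h2ap at 56.1 and 24.4 CPM in Gsdmc/Muc3-high cells, against 562 and 316 CPM in the other cells, and Ccna2 at 5.56 and 5.06 CPM, against 59.2 and 57.5 CPM. Saa1 was the remaining gene. Cycling genes outside the rule had 16 of 29 lower and 0 higher, a direction that turned over when cells above the cycling limit were left out of the other cells (list medians of 0.42 and 0.34 instead of -1.24 and -1.25).

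Against the DC cells below the cycling limit, 9046 genes were tested, of which 133 (1.47%) were at least 2-fold higher in Gsdmc/Muc3-high cells in both libraries and 76 (0.84%) lower. The genes named from this comparison were picked after their values were seen. Now 20 of 24 goblet markers and 11 of 17 core mucus genes were lower, with 0 and 1 higher. Zg16, a lectin-like protein of the mucus, stood at 3933 and 4921 CPM in Gsdmc/Muc3-high cells, against 15239.7 and 15753 CPM in the other non-cycling cells. Muc2 stood at 1918 and 2384 CPM, against 4695 and 5463 CPM. In the other direction, 11 of 32 xenobiotic metabolism genes were higher and 1 lower. Gstm1, a glutathione transferase, had 305 and 347 CPM, against 90.2 and 127 CPM, and Gsto1 had 513 and 584 CPM, against 184 and 227 CPM. Of 24 ion and water transport genes 6 were higher, among them the chloride channel Cftr (66.2 and 70.8 CPM, against 6.11 and 10.6 CPM) and the potassium channel subunit Kcne3 (171 and 172 CPM, against 31.0 and 48.6 CPM). By the smaller of its 2 library ratios Slc5a8 lay furthest above, at 273 and 307 CPM, against 10.2 and 24.2 CPM. The Notch target Hes1, which opposes Atoh1, had 364 and 185 CPM, against 125 and 61.7 CPM.

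**Figure D2:**
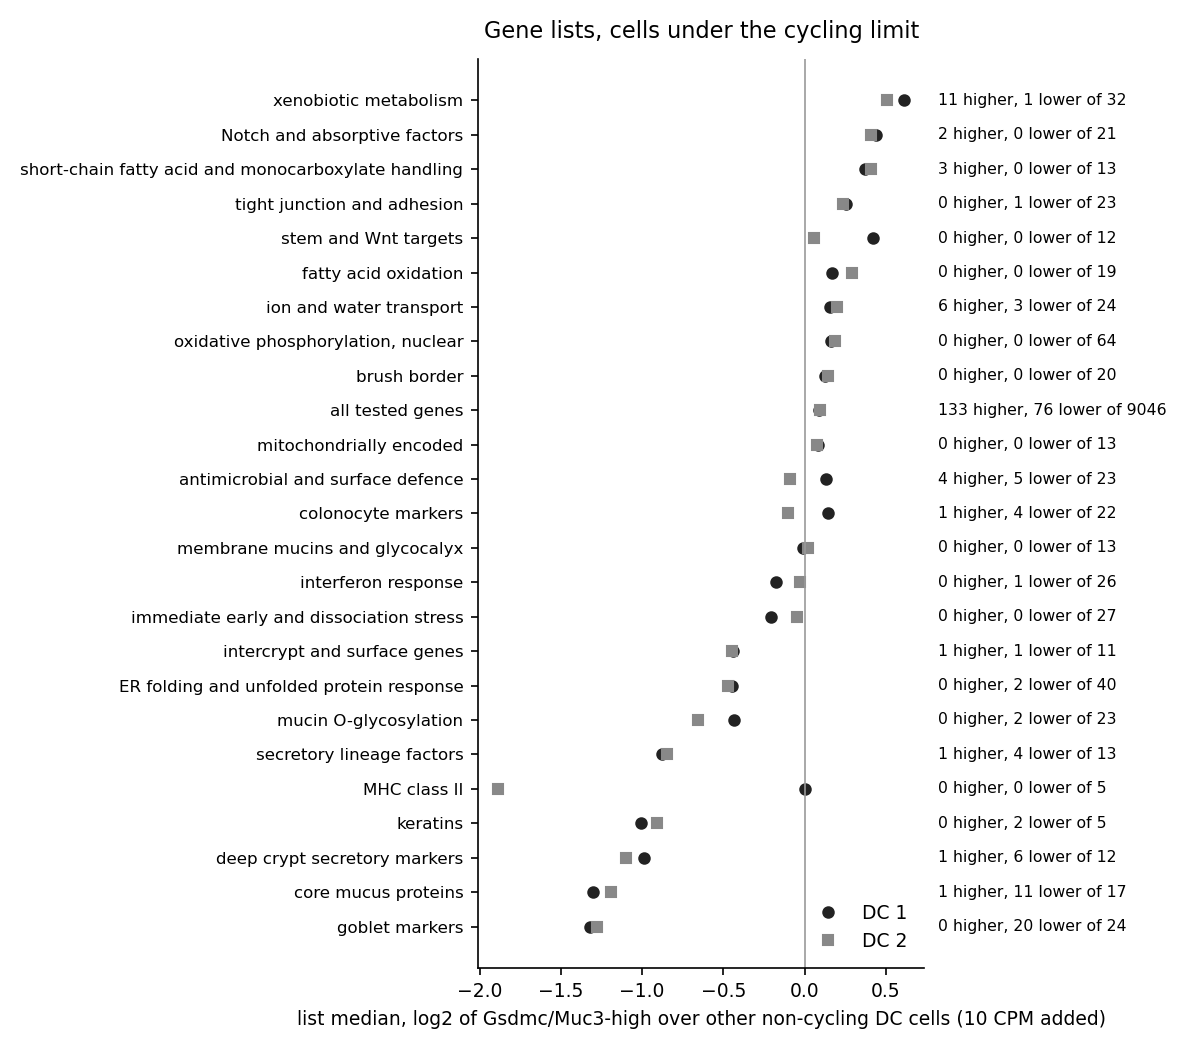
Median log2 ratio of each gene list in Gsdmc/Muc3-high cells over the other DC cells below the cycling limit, with 10 CPM added (circles DC 1, squares DC 2), and at the right the number of tested genes at least 2-fold higher or lower in both libraries. Among lists with at least 10 tested genes, xenobiotic metabolism lies highest, with medians of 0.61 and 0.51, and goblet markers lie lowest, with medians of -1.32 and -1.28. MHC class II rests on 5 genes.

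Muc2 (chr7:141690340-141754693) was lower in the Gsdmc/Muc3-high cells than in the other DC cells. Summed over cells it stood at 1918 CPM in DC 1 and 2384 CPM in DC 2, against 3493 and 4002 CPM in all other kept cells, a log2 ratio of -0.86 and -0.75 (mean -0.80 ± 0.08, SD, n = 2 libraries). The median Gsdmc/Muc3-high cell held 16.8 and 22.6 Muc2 UMIs per 10000, against 33.6 and 41.6. Low Muc2 was not particular to them, since cells over the cycling limit had 1396 and 1901 CPM, with a median of 9.25 and 14.1 per 10000. The Gsdmc/Muc3-high cells held 9.11% and 17.1% of all Muc2 UMIs in their libraries while holding 15.4% and 25.7% of all UMIs. At least 1 Muc2 UMI was present in 92.9% and 99.2% of them, against 98.8% and 99.7% of the other cells. When every cell was thinned to 2000 UMIs, which left out none of them, those shares were 71.7% and 80.5%, against 89.9% and 90.5%.

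A share of cells with a UMI also counts free RNA in the droplets. In DC 2, 11 cells had at least 5 UMIs per 10000 of the leukocyte genes Ptprc, Cd52 and Coro1a, and 90.9% of them had a Muc2 UMI, at a median of 4.06 per 10000 (range 0 to 5.86) and a median depth of 7017 UMIs. DC 1 had no such cell. Muc2 below 5 per 10000 was therefore used as a low range, set near the level of these leukocytes. Gsdmc/Muc3-high cells of DC 2 in this range were deeper, with a median of 14915.5 UMIs. The leukocytes thus do not show that a value just below 5 is background in them, and DC 1 gave no reference. Cells below 5 were 80 (33.3%) of the Gsdmc/Muc3-high cells in DC 1 and 316 (27.7%) in DC 2, against 11.8% and 11.9% of the other cells. Between 5 and 20 lay 50 and 215 of the Gsdmc/Muc3-high cells, between 20 and 50 lay 92 and 453, and 18 and 156 had 50 or more. The cells thus fell into a low and a high range of Muc2, although no empty gap separated them: 10 and 89 cells lay between 4 and 6, and 17 and 62 between 18 and 22.

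**Figure D3:**
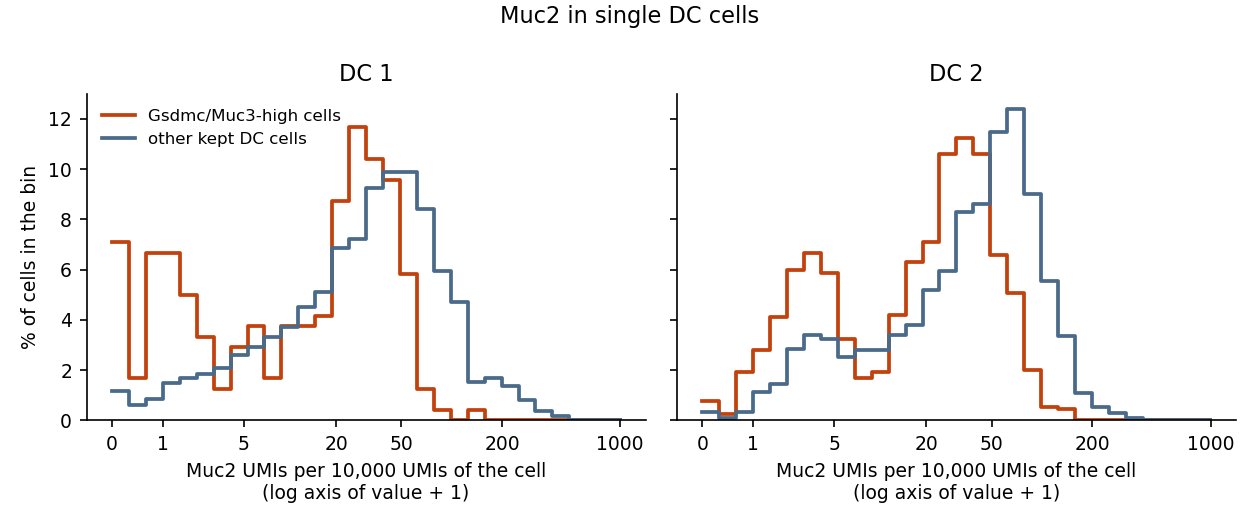
Share of cells (%) by Muc2 UMIs per 10000 UMIs of the cell, on a log axis of the value plus 1, in DC 1 (left) and DC 2 (right); orange lines are Gsdmc/Muc3-high cells and blue lines the other kept cells. The Gsdmc/Muc3-high cells have a low and a high mode, with 33.3% and 27.7% of them below 5, and few reach 50 or more (7.5% and 13.7%), where 34.3% and 42.8% of the other cells lie.

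Gsdmc/Muc3-high cells with Muc2 at 20 or more were then set against those below 5, again as a description. Of 9097 tested genes, 93 (1.02%) were at least 2-fold higher in both libraries and 3 (0.033%) lower. Goblet markers had 22 of 24 higher and core mucus genes 12 of 15, with 0 lower in either list. Both counts include Muc2 itself, whose level made the split. Zg16 stood at 8468 and 8848 CPM in cells with Muc2 at 20 or more, against 176 and 561 CPM in cells below 5. Fcgbp, a mucus protein that binds Muc2, had 2489 and 1951 CPM, against 111 and 131 CPM, and Atoh1 had 195 and 128 CPM, against 62.8 and 16.7 CPM. ER folding genes had 6 of 40 higher and mucin O-glycosylation genes 6 of 23. The 3 lower genes were the cell cycle regulator Rgcc (11.7 and 10.9 CPM, against 58.2 and 41.7 CPM), the microsomal glutathione transferase Mgst1 (64.1 and 77.7 CPM, against 147 and 172 CPM) and Clca3b (52.4 and 63.8 CPM, against 157 and 138 CPM), all 3 named after their values were seen.

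The genes that set the cells apart from other DC cells were found at both ends of this Muc2 range. Slc5a8 stood at 272 and 281 CPM in cells with Muc2 at 20 or more, against 321 and 369 CPM in cells below 5. Dmbt1 had 299 and 255 CPM, against 284 and 349 CPM, and Hao2 had 306 and 235 CPM, against 326 and 417 CPM. Sycn, Wfdc2 and Sult1a1 were lower in the cells rich in Muc2, with log2 ratios between -0.71 and -0.49, short of the 2-fold limit. The median depth was 16773 and 14557 UMIs in cells with Muc2 between 20 and 50 and 14580 and 11886.5 UMIs at 50 or more, against 15536 and 14915.5 UMIs below 5, so the cells with most Muc2 were the shallower in both libraries.

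Within each of 4 Muc2 ranges (below 5, 5 to 20, 20 to 50, and 50 or more), all 45 higher genes had a log2 ratio above 0 over the other cells of that range in both libraries. At least 2-fold in both were 15, 18, 39 and 37 of them, and their median log2 ratio ran between 0.95 and 2.07. These genes were picked for being high in the same cells, so the counts describe how the difference is spread over Muc2 and test nothing. The list median of the goblet markers was below 0 within every range, between -1.36 and -0.29, but its genes differed. Agr2 was below 0 in all 4 ranges in both libraries, whereas at Muc2 of 5 to 20 and of 20 to 50 Zg16 lay above 0 (log2 ratios of 0.83 and 0.87, and of 0.61 and 0.81), as did Fcgbp and Clca1. The other cells here include those over the cycling limit, which held 677 and 1295 CPM of Zg16, and their part was not tested. Per Muc2 UMI, Gsdmc/Muc3-high cells with Muc2 of 20 or more had 2.34 and 2.18 Zg16 UMIs and 0.686 and 0.481 Fcgbp UMIs. All kept DC cells had 2.77 and 2.39 of Zg16 and 0.678 and 0.435 of Fcgbp.

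**Figure D4:**
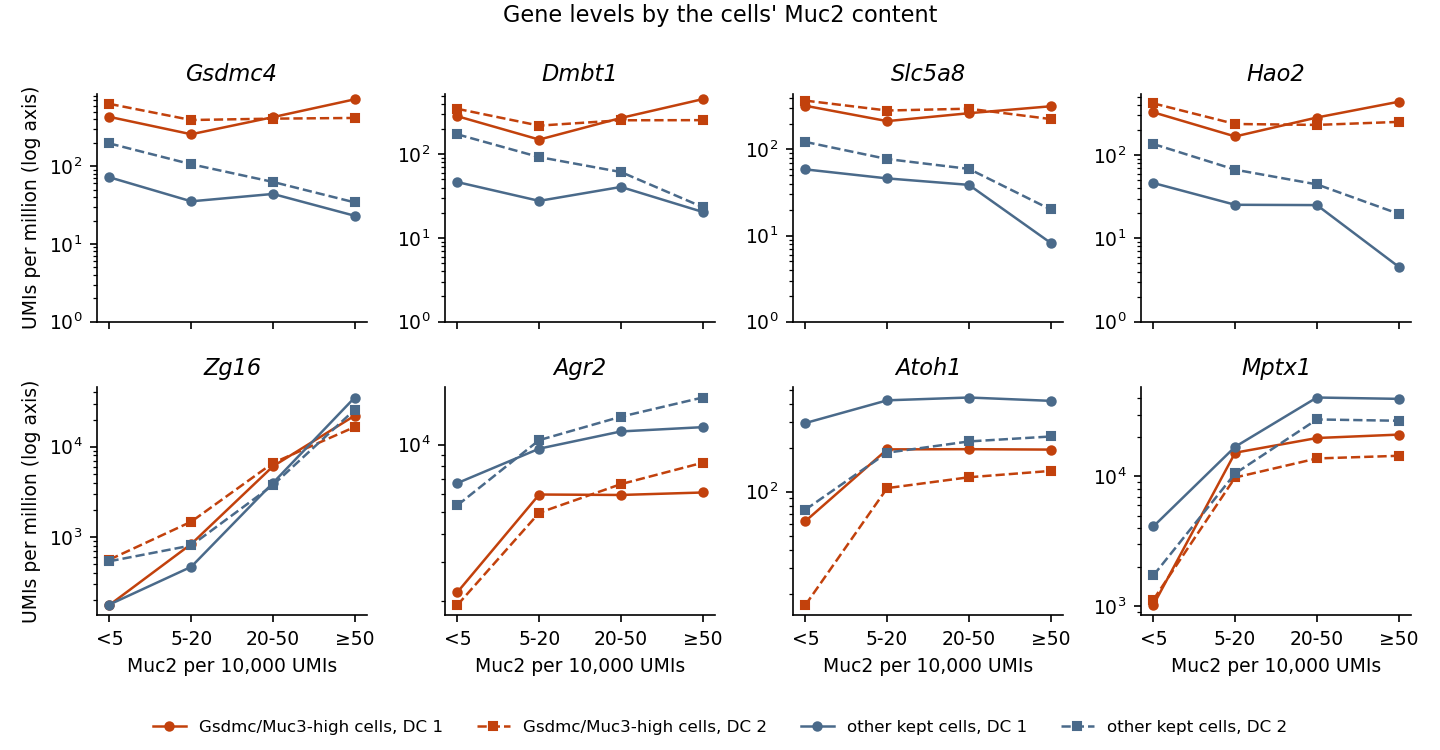
CPM (log axis) of 8 genes in cells grouped by Muc2 UMIs per 10000; orange lines are Gsdmc/Muc3-high cells and blue lines the other kept cells, solid with circles DC 1 and dashed with squares DC 2. Gsdmc4, Dmbt1, Slc5a8 and Hao2 stay high at every Muc2 level in the Gsdmc/Muc3-high cells (Slc5a8 between 213 and 369 CPM), whereas Zg16 and Mptx1 are lowest in the cells with least Muc2 in both groups.

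Cells that failed a limit of the rule shared part of this pattern (genes named after their values were seen). Gsdmc/Muc3-high cells had 406 and 472 CPM of Gsdmc4 and 257 and 275 CPM of Dmbt1, against 246 and 561 CPM of Gsdmc4 and 360 and 588 CPM of Dmbt1 in the 156 and 270 DC cells over the Mxd1 limit. Thus the groups overlapped in Gsdmc4 and the cells over the Mxd1 limit were higher in Dmbt1. Selenbp1 (571 and 1295 CPM, against 265 and 361 CPM in Gsdmc/Muc3-high cells), Tnni1 and 2610528A11Rik were also higher over the Mxd1 limit in both libraries. Slc6a14, Tm4sf20 and Edn1 were higher over the Mxd1 limit in DC 2 alone. Hao2, Slc5a8, Aqp4, Wfdc2, Pam, Mfsd4 and Gk were lower over the Mxd1 limit in both libraries. In DC 2, however, Hao2 (273 CPM, against 288 CPM in Gsdmc/Muc3-high cells) and Pam (60.2 CPM, against 64.2 CPM) were nearly level. Muc3, a gene of the rule, stood at 1483 and 2855 CPM over the Mxd1 limit, against 2045 and 2121 CPM in Gsdmc/Muc3-high cells. The groups lay apart in Sult1a1, which stood at 207 and 237 CPM in Gsdmc/Muc3-high cells, against 17.6 and 51.5 CPM over the Mxd1 limit, and in Saa1, which stood at 36.3 and 54.5 CPM, against 6095 and 4257 CPM. Depth and mitochondrial share differed too, with a median of 16851.5 and 14450 UMIs and 5.69% and 5.32% in Gsdmc/Muc3-high cells, against 4538 and 8048.5 UMIs and 11.6% and 10.2% over the Mxd1 limit, and their part in these differences was not tested. Cells over the cycling limit, 401 and 1093, had 788 and 1138 CPM of Muc3 and 82.6 and 113 CPM of Slc5a8, between the Gsdmc/Muc3-high cells and the 1057 and 2408 DC cells with little Muc3 and Gsdmc (46.4 and 107 CPM of Muc3, and 7.28 and 15.3 CPM of Slc5a8).

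Of the markers of other cell types, the defining ones were at or near 0 in the Gsdmc/Muc3-high cells. The 25 immune markers summed to 49.8 and 42.1 CPM, against 35.9 and 66.7 CPM in the other cells, with 21 and 15 of them without a UMI, including Cd3d and Cd3e in both libraries, and Ptprc had 0 and 1 UMI. The 19 enteroendocrine markers summed to 11.6 and 43.9 CPM, against 22.2 and 224 CPM, the 16 tuft markers to 53.2 and 39.7 CPM, against 76.1 and 57.3 CPM, and the 14 stromal markers to 11.1 and 12.3 CPM, against 15.8 and 15.1 CPM. The 12 Paneth markers in the table summed to 1240 and 1390 CPM, against 971 and 1062 CPM, of which Nupr1, a stress-response factor not particular to Paneth cells, gave 1210 and 1365 CPM, against 884 and 1031 CPM. The Paneth lysozyme Lyz1 had 0.483 and 3.18 CPM, against 17.6 and 13.1 CPM, and 6 of the 12 had no UMI in each library. The stem and Wnt target list, with 0 of 13 genes past the limit in either direction, summed to 685 and 474 CPM, against 756 and 564 CPM. Genes of dissociation stress had 0 of 27 past the limit. Doublets were kept, as the rule keeps them. When the 28 and 193 DC cells with the highest doublet scores were removed, of which 4 and 37 were Gsdmc/Muc3-high, 50 genes were higher and 95 lower.

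The same rule applied to the small intestine found 20 of 1509 kept cells in Si8 1 (1.33%) and 83 of 2237 in Si8 2 (3.71%). The share was 18.05% ± 7.27 in DC and 2.52% ± 1.69 in Si8 (SD, n = 2 libraries each), a difference of 15.5 percentage points. The rule was set for DC cells with earlier results of these data known, so this difference is a description with no test. Counts summed over these cells were then compared between tissues with the edgeR quasi-likelihood test, which asks how distal colon cells chosen in this way differ from small intestinal ones. The rule did not act alike on both tissues. Among cells within the cycling and Mxd1 limits, its absorptive limit left out 5 and 6 DC cells but no Si8 cell, and Aqp8 had no UMI in Si8. Si8 cells passing the rule held 139 and 132 CPM of Car4, against 7.60 and 12.6 CPM in the other Si8 cells. How far this choice made the differences between tissues, such as those of brush border genes and secretory factors, was not tested. Of 10035 genes, 2087 (20.8%) rose and 1744 (17.4%) fell in DC relative to Si8 at a Benjamini-Hochberg adjusted p under 0.05. The Si8 sums rest on 532046 and 2016892 UMIs, and without Si8 2 only 1245 rose and 1135 fell, while DESeq2 called 1119 and 1350 and thinning to 2000 UMIs left 438 and 372. The median log2 fold change was 0.09 with TMM scaling and 0.24 with library totals alone, under which 65.4% of the called genes rose instead of 54.5%.

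Several genes high in the colonic cells stood at other levels in the Si8 cells passing the rule. Dmbt1 fell in DC, with 257 and 275 CPM in DC 1 and DC 2 and 1455 and 752 CPM in Si8 1 and Si8 2 (log2 fold change -2.17 ± 0.23 SE, edgeR adjusted p = 7.4e-07). Slc5a8 rose, with 273 and 307 CPM in DC against 113 and 86.3 CPM in Si8 (1.46 ± 0.18, edgeR adjusted p = 3.55e-06). Hao2 rose further, with 278 and 288 CPM in DC against 22.6 and 21.8 CPM in Si8 (3.54 ± 0.20, edgeR adjusted p = 1.92e-10), and Slc6a14 had 234 and 239 CPM in DC against 7.52 and 3.97 CPM in Si8 (5.48 ± 0.27, edgeR adjusted p = 3.06e-11). In each of these genes the libraries of the tissues did not overlap. The other kept cells differed in the same direction, so these differences were not particular to the cells passing the rule. Dmbt1 stood at 33.2 and 74.0 CPM in the other DC cells, against 241 and 315 CPM in the other Si8 cells. In the same order, Slc5a8 stood at 36.6 and 60.7 CPM, against 5.08 and 8.90 CPM. Hao2 stood at 23.6 and 56.2 CPM, against 2.25 and 4.86 CPM, and Slc6a14 at 30.2 and 55.2 CPM, against 0.985 and 0.389 CPM. Within Si8 these genes were also higher in the cells passing the rule than in the other kept cells. The log2 ratios in Si8 1 and Si8 2 were 2.55 and 1.23 for Dmbt1 and 3.03 and 2.35 for Slc5a8. They were 1.41 and 1.10 for Hao2, and 0.67 and 0.43 for Slc6a14, the last on 4 and 8 UMIs. Wfdc2 had 27514 UMIs in the DC cells and 1 UMI in the Si8 cells, and Sult1a1 had 4890 and 3 UMIs, a CPM ratio of 197 (counting interval from 67.2 to 953). Tm4sf20 barely passed (0.51 ± 0.19, edgeR adjusted p = 0.0473). Muc3 and the Gsdmc genes are fixed by the rule in both tissues and were not counted. Muc2 had 1918 and 2384 CPM in DC against 2586 and 2611 CPM in Si8, and the difference did not pass (-0.42 ± 0.18, edgeR adjusted p = 0.0808, and between 0.0295 and 0.735 over the alternatives), with DESeq2, the replicate block (0.0421) and the fit without Si8 1 below 0.05.

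Secretory factors moved together between the tissues. Of 13, 11 rose in DC and 0 fell, with a median log2 fold change of 1.42 against 0.09 over all tested genes. Atoh1 had 153 and 91.2 CPM in DC against 15.04 and 28.3 CPM in Si8 (2.13 ± 0.28, edgeR adjusted p = 9.03e-06), and Foxa2, a forkhead factor of endodermal secretory cells, had 87.0 and 66.0 CPM in DC against 3.76 and 2.97 CPM in Si8. Hes1 rose as well, with 364 and 185 CPM in DC against 92.1 and 68.9 CPM in Si8. Goblet markers had 13 of 24 that rose and 5 that fell, and core mucus genes 7 of 16 in each direction. Zg16, Clca1, Fcgbp and Tff3 fell by 1.27 to 1.55 on the log2 scale, and Agr2 rose by 0.69. Of 12 deep crypt secretory markers 11 rose and 0 fell, and of 27 genes of dissociation stress 19 rose and 2 fell, whose part in the other differences was not tested.

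Among the 8 genes with the largest rise were Car2, a carbonic anhydrase, at 799 and 749 CPM in DC with 0 UMIs in Si8 (at least 644-fold higher, taking 3 counts over the Si8 cells as the limit), and Hoxb13 (at least 410-fold, at 0 UMIs in Si8). The others were the transglutaminase gene Tgm3, Car1, the Wnt pathway factor Tcf7l1, Nxpe2, Sycn and the matricellular gene Nov. These 8 genes were also higher in the other kept DC cells than in the other kept Si8 cells, so their rise was not particular to the Gsdmc/Muc3-high cells. Car2 stood at 492 and 390 CPM in the other DC cells, against 0.394 and 0.117 CPM in the other Si8 cells. Nov was higher in the other DC cells (93.9 and 221 CPM) than in the Gsdmc/Muc3-high cells (59.0 and 99.3 CPM). The largest falls were those of Reg3b and Reg3g, C-type lectins that act on bacteria, with no UMI of Reg3b in DC against 58446 and 26463 CPM in Si8. Sis, the disaccharidase sucrase-isomaltase, had no UMI in DC against 457 and 458 CPM in Si8, which is at least 3226-fold lower in DC. Defa24, Defa20, Enpep, Apoa1 and Slc51a completed the 8. Brush border genes had 1 of 20 that rose and 17 that fell, MHC class II 0 and 7 of 8, and interferon response 4 and 24 of 35.

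Those Si8 genes were of different kinds within the small intestine. Reg3b stood at 58446 and 26463 CPM in the Si8 cells passing the rule, against 7217 and 3956 CPM in the other kept Si8 cells, and Sis at 457 and 458 CPM, against 16.8 and 45.9 CPM. Defa24, a Paneth cell alpha-defensin with near-identical paralogs, was instead at 637 and 1706 CPM, against 12838 and 19716 CPM in the other Si8 cells, where it is found in nearly every barcode (95.2% and 100%). Its level in the cells passing the rule is therefore at or under that of all Si8 droplets.

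**Figure D5:**
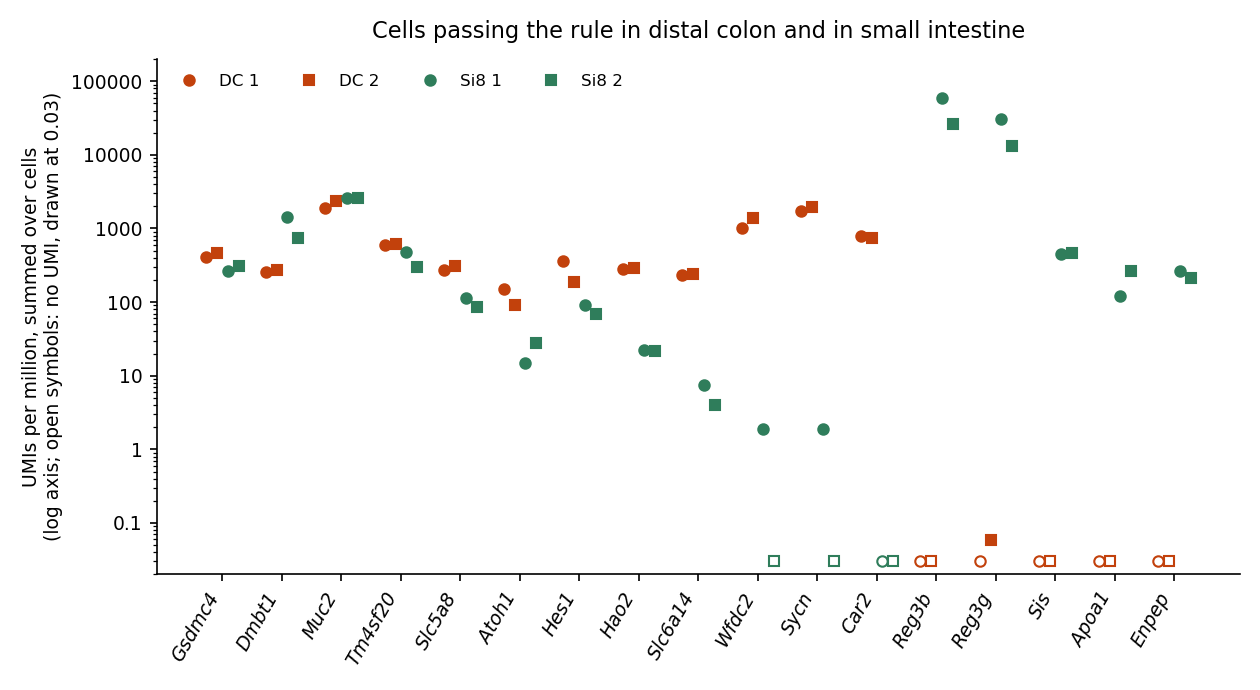
CPM (log axis) in cells passing the rule, by library, with DC in orange and Si8 in green (circles library 1, squares library 2); open symbols drawn at 0.03 stand for no UMI. Muc2 lies between 1918 and 2611 CPM in all 4 libraries, Dmbt1 is higher in Si8, and Hao2, Slc6a14, Wfdc2 and Car2 are higher in DC.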

How the data were processed

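The deposited files hold raw UMI counts per gene and barcode, made by the authors with Cell Ranger 2.1.1 on mm10, per the submitters' processing notes, with no normalization. Cells needed 500 detected genes or more, and a mitochondrial share no higher than 20%; doublets stayed in. UMIs were summed over a group's cells within a library and scaled to CPM; log2 ratios used 10 CPM added, and genes under a mean of 5 CPM were left out. The 2 libraries are the replicates, and cells were never treated as replicates. DC and Si8 sums were tested with edgeR 4.0.16 (quasi-likelihood, TMM, Benjamini-Hochberg adjustment, filterByExpr minimum count 10), with DESeq2 1.42.0 as an alternative and Scrublet in scanpy 1.11.5 for doublets; its own threshold marked too few cells, so the highest scores were removed at 0.8% per 1000 barcodes. The edgeR comparison between tissues was tried on simulated counts, drawn with the same dispersion for every gene.

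Named genes were the 15 highest and 12 lowest against the other DC cells (mean of at least 50 CPM in the higher group, ranked by the smaller library ratio), the 8 highest and 8 lowest between tissues, and members of 32 lists (683 symbols, 8 of them not in the table). The cells and lists were chosen with earlier results of these data known. Coordinates come from GENCODE M21 (GRCm38), which matched 28418 of 28694 gene IDs.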

Additional observations from a re-analysis of the deposited data

How the results depend on the processing

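Of 56 alternative values of the comparisons, 42 stayed near the main value and 14 moved. Of 387 alternative values of single genes set against the other DC cells, 244 stayed the same, 132 moved and 11 reversed. The Muc2 log2 ratio was -0.71 with at most 10% mitochondrial UMIs, -0.72 with a rule sum of at least 20, and -0.92 when cells were thinned before the rule was applied. Of genes at least 2-fold higher there were 139 with 1 CPM added, 133 against other cells below the cycling limit, 144 against other cells with a rule sum below 10, and 70 with means over cells. Of lower genes there were 191 with 1 CPM added. Leaving out a library gave 51 to 102 higher and 115 to 122 lower genes, a share of 12.9% to 23.2% and a Muc2 log2 ratio of -0.86 to -0.75. Between tissues it gave 1245 to 1915 genes higher and 1135 to 1822 lower in DC, the lone library being assumed to vary like the others. DESeq2 called 1119 genes higher, and thinning, which left 4229 genes to test, 438 higher and 372 lower. The replicate block gave 2295 higher and 1945 lower genes. The numbers do not pair the libraries by the labels, and deviations of same-numbered libraries correlated at r = 0.0857 across genes.

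Leaving cells over the cycling limit out of the other cells reversed Hist1h2ap (0.80), Ccna2 (0.17), Cenpa (0.37), Prc1 (0.35), Cdca3 (0.51), 2810417H13Rik (0.46), Cdca8 (0.35), Hmgb2 (0.30), Tuba1b (0.21), Spc24 (0.46) and Smc2 (0.25), by construction, since the cycling cells made the contrast. For other moves the cause was not tested. Between tissues 187 of 190 gene values kept their call, and the other 3 were Muc2, which passed the threshold. With 20 cells, Si8 1 limits the depth.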

Other observations

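In the small intestine the cells that passed the same rule also held less Muc2 than their neighbours. Their median was 16.1 and 7.60 Muc2 UMIs per 10000 in Si8 1 and Si8 2, against 112 and 69.1 in the other kept Si8 cells. Every one of the 20 and 83 cells had a Dmbt1 UMI, against 26.8% and 54.1% of the other Si8 cells. Their Muc3 was lower than in the colon, with a median of 8.71 and 7.34 per 10000, and their rule sum lay near the limit of 10, with a median of 12.7 and 12.2. The difference between the tissues in these per-cell values was not tested.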
